A study of Mus musculus with 4 samples.

Results

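The numbered zinc finger protein genes of the mouse, those whose symbol is Zfp followed by digits alone, were described in fetal gonads. Zfp42 was left out. The rule found 332 genes among 20299, on 20 chromosomes. It used names only, though it was set with earlier results of these data known. RNA had been sequenced from the germ cells and the gonadal somatic cells of each sex at 15.5 days post coitum (dpc), with 1 library in each group. All fetuses came from CF1 females mated with TgOG2 males, so all 4 groups share that background and its transgene, in which the Oct4 promoter drives EGFP. Germ cells were the GFP-positive and somatic cells the GFP-negative part of a flow sort, and the somatic fraction is therefore a mixture of every gonadal cell type without the reporter.

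Zinc finger proteins of the C2H2 type hold DNA with a row of small zinc-binding loops. Many mouse members also carry a KRAB domain, which recruits the corepressor TRIM28 and, through it, the histone H3 lysine 9 methyltransferase SETDB1 and HP1 proteins, and such proteins are best known for silencing retrotransposons. The genes multiplied by local duplication and often stand in clusters of close relatives. A number in the symbol does not make a protein a KRAB protein: Zfp36, for example, encodes an RNA-binding protein of another zinc finger type. At this age male germ cells are arrested in mitosis and gain DNA methylation, whereas their female counterparts have entered meiosis.

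The 250 bases before the annotated start are printed for 5 of the most unequal members (RefSeq, GRCm38.p6, 5′ to 3′ on the strand of the gene, CpG dinucleotides in capitals). Whether these starts are the ones used in fetal gonads was not tested, so a stretch need not be an active promoter. Zfp746 (chr6:48086594-48086843, minus strand) and Zfp541 (chr7:16071595-16071844, plus strand) were far higher in female than in male germ cells. Zfp365 (chr10:67912663-67912912, minus strand) and Zfp819 (chr7:43606919-43607168, plus strand) were far higher in male germ cells, and Zfp936 (chr7:43177340-43177589, plus strand) was higher in both germ libraries than in both somatic libraries.
Zfp746: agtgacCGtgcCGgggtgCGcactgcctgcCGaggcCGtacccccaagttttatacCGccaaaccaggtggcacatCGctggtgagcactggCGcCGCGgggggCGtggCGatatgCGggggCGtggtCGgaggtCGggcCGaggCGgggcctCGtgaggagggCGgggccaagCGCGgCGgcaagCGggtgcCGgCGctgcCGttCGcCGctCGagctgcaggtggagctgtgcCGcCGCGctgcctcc
Zfp541: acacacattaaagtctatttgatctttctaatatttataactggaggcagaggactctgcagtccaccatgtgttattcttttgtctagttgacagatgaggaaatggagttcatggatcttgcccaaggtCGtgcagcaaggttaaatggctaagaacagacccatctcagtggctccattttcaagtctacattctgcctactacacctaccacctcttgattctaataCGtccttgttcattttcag
Zfp365: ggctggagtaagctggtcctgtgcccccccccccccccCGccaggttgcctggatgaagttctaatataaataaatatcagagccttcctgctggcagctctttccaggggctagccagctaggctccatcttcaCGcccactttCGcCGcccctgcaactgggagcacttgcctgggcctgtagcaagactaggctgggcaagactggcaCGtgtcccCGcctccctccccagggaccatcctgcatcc
Zfp819: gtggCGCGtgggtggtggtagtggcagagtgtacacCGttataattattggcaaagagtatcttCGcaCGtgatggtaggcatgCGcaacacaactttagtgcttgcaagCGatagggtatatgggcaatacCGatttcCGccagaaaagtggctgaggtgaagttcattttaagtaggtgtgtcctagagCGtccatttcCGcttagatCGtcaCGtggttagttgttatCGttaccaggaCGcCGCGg
Zfp936: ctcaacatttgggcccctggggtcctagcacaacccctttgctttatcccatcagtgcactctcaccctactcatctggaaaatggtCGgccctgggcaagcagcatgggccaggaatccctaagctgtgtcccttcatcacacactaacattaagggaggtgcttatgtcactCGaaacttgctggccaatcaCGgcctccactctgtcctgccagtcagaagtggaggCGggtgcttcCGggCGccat
The stretch of Zfp746 holds 33 CpG and that of Zfp819 holds 17, while Zfp365 and Zfp936 hold 6 each and Zfp541 holds 2. Among these 5, CpG-rich and CpG-poor stretches thus occur in either direction, with Zfp541 the only CpG-poor one on the female side.

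Of the 332 members, 273 had at least 1 promoter window in the RefSeq table, 338 windows in all, each of 300 bases from 250 before to 50 after a start. These windows held a median of 15 CpG, against 7 over all 32851 windows of the table. A window counted as island-like when its GC content was above 50% and its observed CpG number was above 0.6 of that expected from its base composition. By this measure 50.9% of the members' windows and 33.3% of all windows were island-like. The motif CGGAAG, the core bound by ETS factors, lay on either strand in 34.9% of the members' windows and in 16.9% of all. CACGTG, an E-box, lay in 6.80% and 7.15%. Neither string contains the other, and a match is a string of letters, not a bound site.

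The libraries were compared as scaled signal per 1000000 of the library total (SPM), since the deposited values are scaled and are not raw counts. The worth of 1 read was estimated from the spacing of low values, which only part of them fit. This gave approximate depths of 17.5 to 24.9 M reads (M stands for 1000000). The 5 germ cell markers summed to 3922 and 2252 SPM in the male and female germ libraries and to 34.9 and 4.94 in male and female somatic cells, and all 5 were above 0 in every library. The 4 stroma markers summed to 133 and 21.0 SPM in the germ libraries and to 9551 and 2911 in the somatic libraries. The 3 red blood cell markers summed to 191 and 52.1 against 16345 and 7674, with Hbb-y at 0 in female germ cells. The 3 leukocyte markers summed to 3.58 and 1.71 SPM in the germ and to 21.9 and 9.80 in the somatic libraries. Of these, Ptprc was at 0 in both germ libraries, Csf1r stood at 1.49 and 1.21 SPM there, and Cd68 was higher in the male germ library (2.09) than in the male somatic one (1.64). The 3 endothelium markers summed to 31.8 and 21.8 SPM in the germ and to 153 and 226 in the somatic libraries. Of these, Pecam1 was level, at 15.9 and 17.3 against 14.0 and 14.9. The 3 Leydig cell markers summed to 41.6 and 11.5 against 429 and 84.3. The 3 supporting cell markers summed to 15.4 and 17.6 against 650 and 922. The germ libraries thus had the higher germ marker sums and the somatic libraries the higher sums of these other lists. Somatic and blood transcripts were present in both germ libraries, with stroma, Leydig and red blood cell sums higher in the male one.

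Most numbered Zfp genes were detected in all 4 libraries. In all, 296 members (89.2%) reached 1 SPM in every library, against 11335 of all genes (55.8%). By library, 317 members (95.5%) reached 1 SPM in male germ, 305 (91.9%) in female germ, and 315 (94.9%) in each of the somatic libraries. The shares of all genes were 70.1%, 63.1%, 65.7% and 65.8% in the same order. Only 8 members stayed below 1 SPM everywhere: Zfp352, a gene of the early embryo, Zfp366, Zfp474, Zfp575, Zfp616, Zfp648, Zfp663 and Zfp735. Of these, Zfp735 was listed at 0 in every library.

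**Figure D1:**
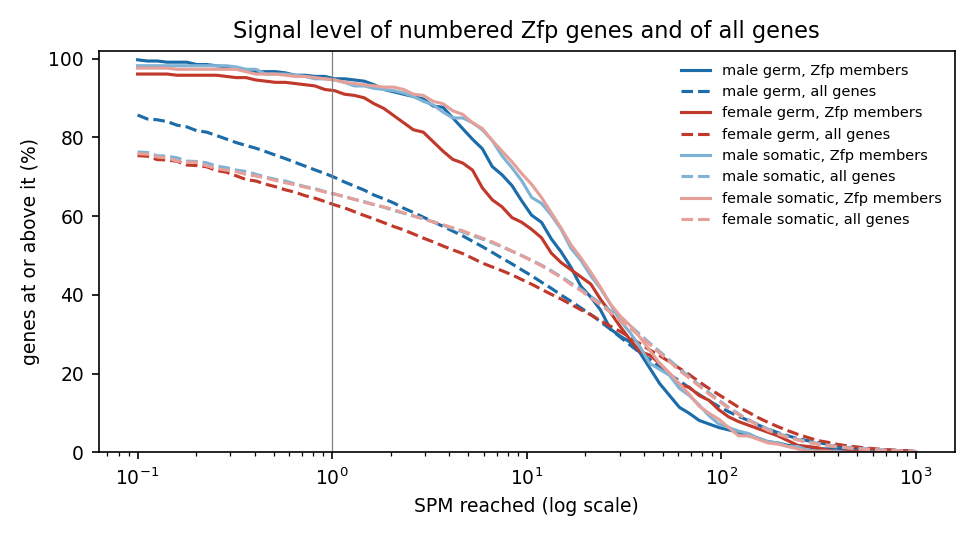
Share of genes (y axis, %) that reached a given SPM (x axis, log scale) in each of the 4 libraries, for the 332 members (solid lines) and all 20299 genes (dashed lines). At 1 SPM, the grey vertical line, the solid lines stand between 91.9% and 95.5% and the dashed lines between 63.1% and 70.1%.

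The median member stood at 15.6 and 13.9 SPM in the male and female germ libraries and at 18.5 and 18.3 in the male and female somatic ones, against 7.11, 4.89, 9.39 and 9.43 for the median gene. Per kilobase of gene length, which allows levels to be compared between genes, the members' medians were 4.64, 4.37, 5.55 and 5.69 SPM per kb and those of all genes 2.58, 1.78, 3.56 and 3.59. Together the members took 1.19%, 1.23%, 1.11% and 1.22% of the signal of the 4 libraries. Among the 307 members at 5 SPM or more in a library, the highest library stood a median of 2.98-fold above the lowest (on SPM + 0.5), against 4.39-fold for all genes. The library with the highest value was male germ for 76 of the 307, female germ for 87, male somatic for 67 and female somatic for 77. These are 24.8%, 28.3%, 21.8% and 25.1%, close to the 24.7%, 31.2%, 22.3% and 21.8% of all genes.

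The highest members per kb differed between the germ libraries but were nearly shared by the somatic libraries. In male germ cells Zfp516, known as an activator of the brown fat gene Ucp1, led at 70.1 SPM per kb, followed by the RNA-binding protein gene Zfp106 (61.6), Zfp318 (53.9), Zfp451 (52.8) and Zfp644 (52.5). In female germ cells Zfp622, a factor of ribosome assembly, led at 122 SPM per kb, followed by Zfp639 (88.2), Zfp541 (81.4), Zfp451 (70.1) and Zfp672 (64.9). In male somatic cells Zfp740 (67.3), Zfp266 (64.3), Zfp260 (52.6), Zfp644 (52.2) and Zfp146 (47.4) were highest. In female somatic cells the highest were Zfp740 (72.4), Zfp266 (62.2), Zfp644 (48.1), Zfp146 (44.5) and Zfp36 (39.0).

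Germ cells were then compared with somatic cells to see which members set the sorted fractions apart. Few did: Zfp318, Zfp451, Zfp831 and Zfp936 were higher in germ cells, and 8 members, among them Zfp423, Zfp503 and Zfp266, were lower. The test was limma with a mean-variance trend on log2(SPM + 0.5), with the male and the female library as the 2 samples of each cell type, and Benjamini-Hochberg adjustment over 14148 genes, of which 320 were members. The 4 higher members are 1.25% of those tested, against a background of 2.5% over all genes, and the 8 lower are 2.5%, against 5.56% (8.06% of all genes passed in either direction). At an unadjusted p under 0.05 there were 20 higher and 42 lower members, 62 in all (19.4%), against 31.4% of all genes. With sex as a term, which pairs the germ and somatic libraries of each sex, 10 of 320 members passed as higher and 24 as lower. Over all genes 1094 and 1955 of 14148 did, 3049 in all. With upper-quartile factors in place of TMM (trimmed mean of M values) factors, 5 of 320 members passed as higher and 6 as lower. Over all genes the counts were 326 and 541 of 14164. The median log2 ratio over the 320 members was -0.28, against -0.11 over all genes tested. Both germ libraries stood above both somatic libraries for 66 members (20.6%, background 28.5%) and below them for 119 (37.2%, background 33.8%).

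These calls rest on 2 libraries of each cell type. When either somatic library was left out, 0 members passed in either direction, with the lone somatic library then assumed to vary like the germ libraries, and members at an unadjusted p under 0.05 numbered 7 higher and 13 lower without the male library (6.25% in all, against 15.1% of all genes) and 6 and 12 without the female one (5.62%, against 15.4%). Without the male or the female germ library, which leaves 1 germ library, all 12 members that passed kept their direction. This could not have been otherwise, since in each of the 12 both germ values lie on the same side of both somatic values. Stroma and red blood cell markers moved with the same contrast, as given above, and their part in the members' differences was not tested. In bulk samples of this kind, fewer cells of a type and less RNA per cell cannot be told apart.

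Zfp936 (chromosome 7, 50432957 to 50447479, plus strand, mm9) stood at 31.7 SPM in the male and 13.2 in the female germ library, and at 0.423 and 0.379 in male and female somatic cells. Both germ libraries were far above both somatic libraries, and the log2 ratio was 4.54 ± 0.75 (SE, with 2 libraries of each cell type; adjusted p = 0.0379 by limma). Zfp318 (chromosome 17, 46520714 to 46557867, plus strand), a nuclear protein gene known for IgD expression in B cells and for testis transcripts, was already high in somatic cells. It stood at 449 and 533 SPM in germ cells and at 111 and 105 in somatic cells, which gave 2.17 ± 0.36 on the log2 scale (limma adjusted p = 0.0379). Zfp451 (chromosome 1, 33818597 to 33871272, minus strand), which encodes a SUMO ligase, stood at 193 and 257 SPM in germ cells and at 58.6 and 55.2 in somatic cells, 1.96 ± 0.39 on the log2 scale (limma adjusted p = 0.0484). For both genes the germ values were apart from the somatic values by more than the sexes were from each other.

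Zfp831 (chromosome 2, 174469034 to 174536331, plus strand) was at or below the floor of 3 reads in somatic cells. Its values were 8.36 and 5.50 SPM in the male and female germ libraries, and 0 and 0.0195 in the somatic ones. Male germ cells were at least 46.4-fold higher than male somatic cells when the 0 is set to 3 reads, and the fitted log2 ratio of 3.84 ± 0.61 (limma adjusted p = 0.0371) depends on the pseudocount. Zfp541, a chromatin protein gene of meiotic prophase in spermatocytes, had the largest germ ratio of all members tested, 5.78 ± 1.37, but did not pass (limma adjusted p = 0.0635). With sex as a term it passed (limma adjusted p = 0.000109), and likewise without the male germ library (0.0385). It stood at 25.8 SPM in the male and 372 in the female germ library, against 0.748 and 2.10 in somatic cells. Both germ values were above both somatic values, and the germ values themselves lay far apart.

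Among the members lower in germ cells, Zfp423 (chromosome 8, 90185708 to 90483494, minus strand), a transcription factor gene of adipocyte precursors and of the cerebellum, stood at 3.01 and 2.25 SPM in germ cells and at 95.4 and 38.4 in male and female somatic cells. The log2 ratio was -4.30 ± 0.72 (limma adjusted p = 0.0386), and the call was also lost without the female germ library (adjusted p = 0.0639). Zfp503 (chromosome 14, 22803183 to 22808823, minus strand), a corepressor gene of limb and brain development, stood at 1.55 and 2.45 SPM against 27.1 and 61.6, a log2 ratio of -4.07 ± 0.74 (limma adjusted p = 0.0429). The somatic values of these 2 genes leaned to opposite sexes, Zfp423 to the male and Zfp503 to the female library. Zfp503 lost its call without either germ library (adjusted p = 0.0527 and 0.0599) and with upper-quartile factors (0.0501).

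The other 6 lower members had nearly equal values in the male and female somatic libraries. Zfp362 stood at 2.10 and 3.98 SPM in germ cells against 46.3 and 43.6 (-3.73 ± 0.65 on the log2 scale), and Zfp651 at 3.98 and 4.76 against 53.5 and 54.5 (-3.49 ± 0.57). Zfp266, on chromosome 9 and one of the highest members per kb in somatic cells, stood at 82.1 and 65.6 SPM against 405 and 391 (-2.43 ± 0.37). Their limma adjusted p-values lay between 0.0358 and 0.0400. Zfp532 stood at 17.4 and 25.4 SPM against 115 and 120 (-2.45 ± 0.45, limma adjusted p = 0.0437), and Zfp146 at 21.7 and 19.8 against 96.3 and 90.5 (-2.14 ± 0.43, limma adjusted p = 0.0498). The call of Zfp146 was lost with library totals alone, upper-quartile factors or either other pseudocount (adjusted p from 0.0507 to 0.0612). Zfp300, on chromosome X, had 0.137 SPM in the male germ library and 0 in the female one, against 6.41 and 6.66 in the somatic libraries. Its male somatic value was 46.7-fold the male germ value (95% interval 16.2 to 160, from about 4 reads in the germ library), and its female somatic value was at least 37.1-fold the female germ value (limma adjusted p = 0.0379).

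**Figure D2:**
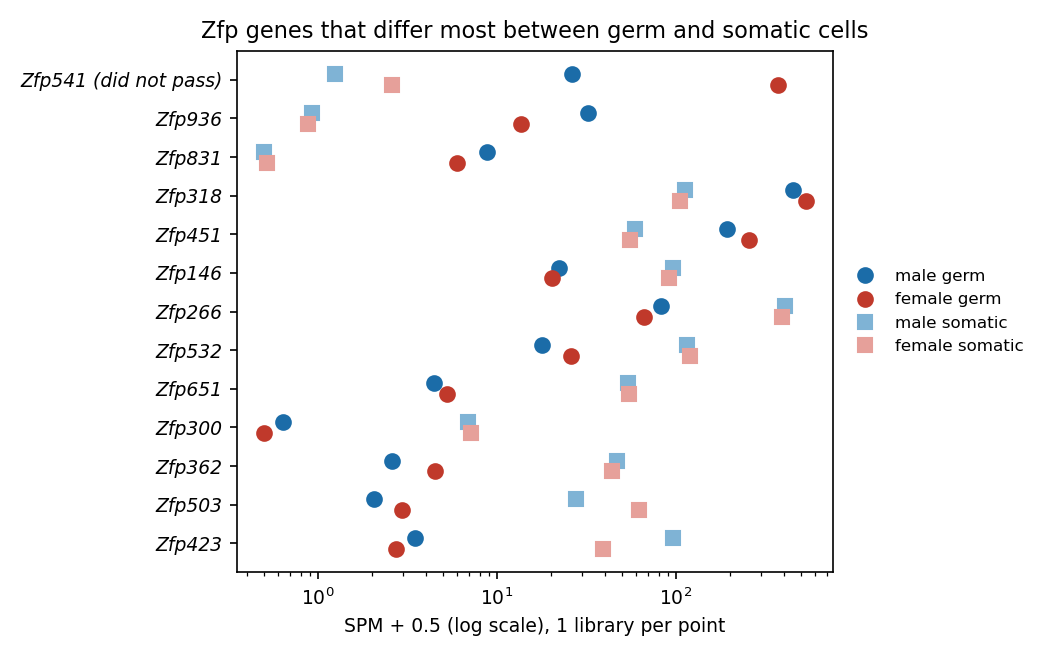
SPM + 0.5 (x axis, log scale) of the 12 members that passed the germ against somatic test and of Zfp541, which did not, with 1 point for each library (circles germ cells, squares somatic cells). In each of the 12 the 2 germ points lie on the same side of the 2 somatic points, and for Zfp541 the male germ point at 25.8 SPM and the female one at 372 lie far from each other.

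No member passed the test of a sex difference shared by both cell types. With cell type as a term, 19 of 14148 genes (0.134%) passed limma at an adjusted p of 0.05, and 0 of the 320 members did. At an unadjusted p under 0.05, Zfp37, Zfp536 and Zfp819 were higher in the male libraries and Zfp541, Zfp672 and Zfp746 in the female libraries. These 6 are 1.88% of the members tested, against 6.47% of all genes. This fit has 1 residual degree of freedom. With a pseudocount of 0.1 SPM, 1 member passed, Zfp672 (limma adjusted p = 0.00542), as lower in the male libraries (-3.30 ± 0.77 on the log2 scale).

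With TMM factors, male and female germ cells differed by at least 4-fold in 45 members, a smaller share than among all genes in either direction. This comparison sets 1 library against 1, so it has no replicate check and no p-value. Members were counted where the ratio was at least 4-fold and the higher library had at least 5 SPM. Of 286 members at 5 SPM in a germ library, 31 (10.8%, background 14%) were higher in male and 14 (4.90%, background 10%) in female germ cells. At 2-fold the counts were 79 in the male (27.6%, background 26.8%) and 62 in the female direction (21.7%, background 26.3% of 11766 genes), so that the male share was no longer below the background. With upper-quartile factors the 4-fold counts were 43 male and 10 female, but the share of all genes was not counted there. Whether the members' 4-fold shares stay below the background under that scaling is therefore not known. That scaling moved the median log2 ratio of all genes from -0.07 to 0.20 and of the members from -0.00025 to 0.27, so that the members stood 0.07 above all genes under both. Setting the 3 members listed at 0 in female germ cells to their bounds could not move the members' median, since their ratios already lay far on the male side. The log2 ratios had an SD of 1.49 over the members and 1.74 over all genes.

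The 8 members with the highest male ratios had levels from 5.59 to 38.7 SPM in the male germ library. Zfp37, a KRAB gene first known from the testis, stood at 38.7 SPM in the male and 1.498 in the female germ library, and at 13.4 and 11.7 in male and female somatic cells. The male germ value was 25.8-fold the female one (95% interval 17.5 to 40.2, counting error only), so that the female germ library stood apart from the other 3. Zfp819, a KRAB gene of testis and pluripotent cells, has its upstream stretch printed above. It stood at 30.2 SPM in the male and 1.70 in the female germ library, 17.8-fold (12.4 to 27.3). In male and female somatic cells it stood at 0.453 and 0.0778. Zfp941 stood at 24.4 and 1.56 SPM in germ cells (15.7-fold, 10.6 to 24.2), and Zfp825 at 22.7 and 2.03 (11.2-fold, 7.91 to 16.3).

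In 4 further members the female germ library held almost no read. Zfp365, which encodes a protein of neuronal development, had 9.87 SPM in the male germ library and 0 in the female one, at least 55.1-fold with the 0 set to 3 reads, and at 1.08 and 5.43 in male and female somatic cells. Its direction between the sexes was thus opposite in germ and somatic cells. Zfp493 stood at 5.988 SPM against 0 in germ cells (at least 33.4-fold) and Zfp455 at 5.59 against 0 (at least 31.1-fold). Zfp92, on chromosome X, stood at 7.77 against 0.0591 SPM, 131-fold with a 95% interval of 23.1 to 5157, since the female value rests on about 1 read.

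The 8 members with the highest female ratios had levels from 11.7 to 372 SPM in the female germ library. Zfp672 stood at 5.90 SPM in the male and 237 in the female germ library, 40.2-fold (95% interval 34.3 to 47.5), and at 24.2 and 59.5 in male and female somatic cells. The female library was the higher in both cell types. Zfp746, which encodes the parkin substrate PARIS, stood at 11.3 and 199 SPM in germ cells (17.5-fold, 15.6 to 19.8) and at 59.2 and 65.6 in somatic cells. Here the male germ library was the lowest of the 4 and the female germ library the highest.

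Zfp541 was 14.4-fold higher in female than in male germ cells (13.3 to 15.6), at the values given above. Zfp473, which encodes a factor of histone pre-mRNA processing, stood at 10.3 and 88.0 SPM in germ cells (8.55-fold, 7.51 to 9.77) and at 1.74 and 1.12 in somatic cells, so both germ libraries were above both somatic libraries (limma adjusted p = 0.0883). Zfp398 stood at 5.01 and 78.3 SPM in germ cells (15.6-fold) and Zfp282 at 3.86 and 35.9 (9.31-fold). Zfp865, at 1.41 and 11.7 SPM, was 8.30-fold and Zfp174, at 5.98 and 35.8, was 5.98-fold higher in female germ cells. In the germ libraries the stroma markers summed to 133 SPM in the male and 21.0 in the female one, and the part of such differences in these ratios was not tested.

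**Figure D3:**
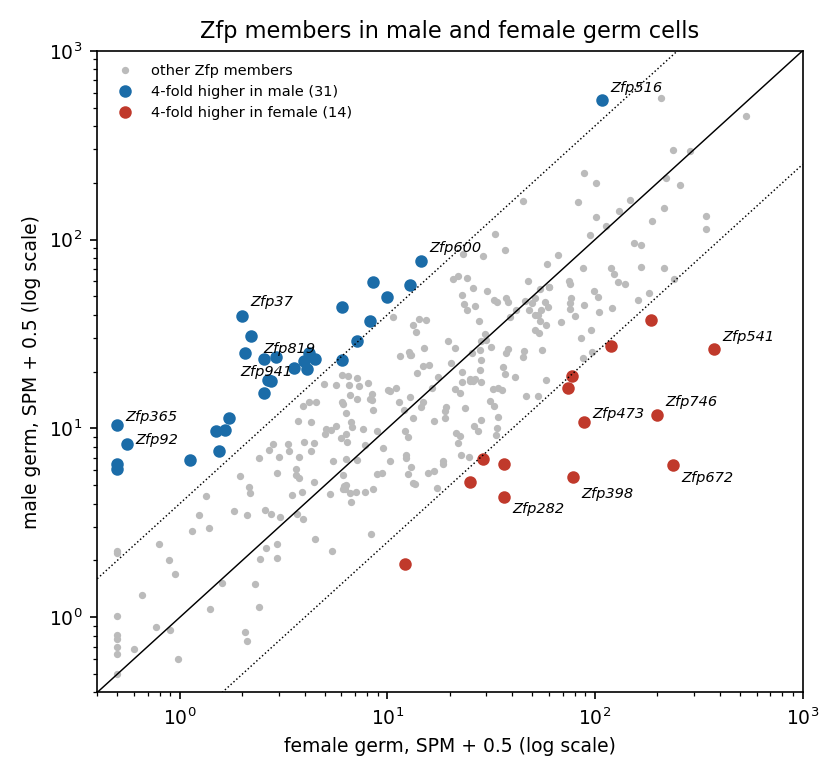
SPM + 0.5 of each member in male germ cells (y axis) against female germ cells (x axis), both on log scales. The 31 members at least 4-fold higher in male and the 14 in female germ cells are coloured, and the other members are grey and lie along the diagonal.

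Promoter windows of the members in these classes differed in CpG number, as a description with no test. The 29 windows of members 4-fold higher in male germ cells held a median of 10 CpG (quartiles 6 and 14) and 31.0% of them were island-like. The 17 windows of members higher in female germ cells held a median of 20 (quartiles 16 and 22) and 70.6% were island-like. The 246 windows of members at 5 SPM in a germ library and in neither class held a median of 16 (quartiles 9 and 23), with 56.1% island-like. The 46 windows of members below 5 SPM in both germ libraries held a median of 9, and 28.3% were island-like. Zfp541, in the female class with 2 CpG in the 250 bases printed above, and Zfp819, in the male class with 17, lie against the order of the medians.

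In somatic cells the sexes were close. Of 289 members at 5 SPM in a somatic library, 1 was at least 4-fold higher in male (background 3%) and 1 in female somatic cells (background 3.17%). At 2-fold there were 5 (1.73%) and 8 members (2.77%), against 9.61% and 8.26% of 11835 genes. The SD of the log2 ratio was 0.49 over the members and 0.99 over all genes, and the medians were -0.03 and 0.01. The male exception was Zfp536, a negative regulator gene of neuronal differentiation, at 14.0 SPM in male and 0.399 in female somatic cells (35.0-fold, 95% interval 18.7 to 74.1), and at 3.90 and 0.838 in germ cells. The female exception was Zfp365, 5.02-fold (3.06 to 8.73) at the values given above. Sertoli markers summed to 388 SPM in male and 8.40 in female somatic cells, stroma markers to 9551 and 2911, and their part was not tested.

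The next members in the male direction were Zfp367 (64.4 and 24.1 SPM), Zfp423 (95.4 and 38.4), Zfp9 (53.9 and 23.5) and Zfp608 (34.4 and 15.9). Their male values were between 2.15-fold and 2.68-fold the female ones. In the female direction they were Zfp941 (3.03 and 10.04 SPM), Zfp277 (23.9 and 62.9), Zfp612 (8.60 and 22.7) and Zfp672 (24.2 and 59.5), between 2.46-fold and 3.31-fold higher in the female library. Zfp941 was thus higher in the male library among germ cells and in the female library among somatic cells.

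**Figure D4:**
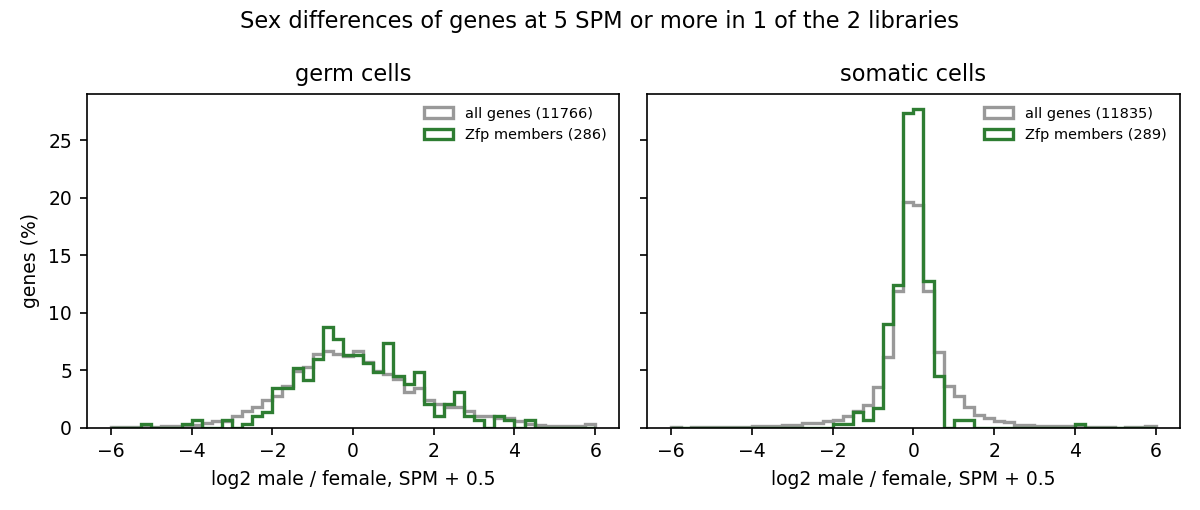
Share of genes (y axis, %) by log2 ratio of male to female SPM + 0.5 (x axis) in germ cells (left) and somatic cells (right), for the members and for all genes at 5 SPM or more in 1 of the 2 libraries compared. Values beyond 6 in either direction are drawn in the outermost bin. The members' SD is 1.49 in germ cells and 0.49 in somatic cells.

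With neighbours joined where their starts lay within 1 Mb, the members formed 47 groups of 2 or more, which held 233 members, and 99 members stood alone. Chromosome 7 held 84 members, chromosome 17 held 38, chromosome 13 held 30, chromosome 8 held 24 and chromosome 9 held 20. There were 15 clusters of 5 or more, with 147 members in all. Members of these clusters had a median germ against somatic log2 ratio of -0.43, those in groups of 2 to 4 had -0.29, and those alone had -0.07. Both germ libraries stood below both somatic libraries for 41.4%, 36.6% and 31.2% of them, against 33.8% of all genes tested. Cluster members that passed as higher or lower numbered 1 and 2 of 145 (0.69% and 1.38%). In groups of 2 to 4 they numbered 0 and 1 of 82, and among members alone 3 and 5 of 93 (3.23% and 5.38%). Over all genes tested the shares were 2.5% and 5.56%, near those of members alone. Median levels in female germ cells were 3.04 SPM per kb in these clusters, 4.47 in groups of 2 to 4 and 6.36 for members alone. The order was the same in male germ cells (4.16, 4.88 and 5.42). It also held in male somatic (4.72, 4.99 and 6.87) and female somatic cells (4.80, 5.14 and 7.11).

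In 2 clusters on chromosome 17 members at least 2-fold apart between the germ libraries were all higher in male cells. The larger (mm9, chromosome 17, 21145904 to 23736454) held 20 members, of which 18 reached 5 SPM in a germ library. There 8 were at least 2-fold higher in male germ cells and 0 in female ones, and the median log2 ratio was 0.61 in germ and -0.04 in somatic cells. Its extremes were Zfp948 (17.4 SPM in the male and 2.25 in the female germ library) and Zfp942 (23.4 and 44.3). The other (32902441 to 33768659) held 11 members, of which 7 of 10 were at least 2-fold higher in male germ cells and 0 in female ones, with a median of 1.52 in germ and 0.12 in somatic cells. Its extremes were Zfp799 (59.1 and 8.005 SPM) and Zfp563 (19.0 and 36.2). Genes between these members that are not numbered Zfp genes leaned the same way in the smaller cluster, with 4 of 4 at least 2-fold higher in male germ cells and a median of 1.62, but not in the larger one, with 0 of 2.

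Over the whole of chromosome 17, 17 of 35 members were at least 2-fold higher in male germ cells and 0 in female ones, and 9 reached 4-fold. Among the 555 other genes of the chromosome at 5 SPM, 27.6% were 2-fold higher in male germ cells and 26.5% in female ones. In somatic cells 0 of 35 members were 2-fold apart in either direction. On chromosome 4, 5 of 10 members were 2-fold higher in male germ cells and 0 in female ones, against 28.4% and 23.4% of its other genes. These were Zfp37, Zfp69, Zfp189, Zfp600 and Zfp618, and Zfp600 overlaps another gene on the same strand, so its reads cannot be assigned with certainty. Chromosome 6 leaned the other way, with 7 of 15 members 2-fold higher in female and 2 in male germ cells, against 30.1% and 22.9% of its other genes. The 3 chromosomes were singled out after their values were seen, and the differences from other genes were not tested.

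The female lean of chromosome 6 lay largely in a cluster of 9 members (47769264 to 48573226, mm9). In it 5 were at least 2-fold higher in female and 2 in male germ cells, with a median log2 ratio of -1.37 in germ and -0.35 in somatic cells. Zfp398, Zfp282 and Zfp746 were the 3 members past 4-fold, Zfp786 and Zfp777 were past 2-fold, and Zfp467 and Zfp775 at the far end of the cluster were higher in male germ cells. Of 5 other genes between them, 2 were 2-fold higher in male germ cells and 0 in female ones. Neighbouring members thus did not share 1 direction.

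A change of direction along a cluster was also seen on chromosome 7 (6083090 to 7162709), a division made after its values were seen. The first 6 of its 10 members by position, Zfp787, Zfp444, Zfp667, Zfp583, Zfp78 and Zfp28, were all lower in male than in female germ cells, from -1.42 to -0.54 on the log2 scale. The last 4, Zfp954, Zfp773, Zfp418 and Zfp772, were all higher, from 1.001 to 2.77. Zfp667 stood at 38.9 SPM in the male and 80.04 in the female germ library, and Zfp773 at 17.5 and 2.15. In somatic cells the median was -0.05, over the 7 of them at 5 SPM in a somatic library.

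The other large clusters showed smaller or mixed leanings. On chromosome 13 (67139529 to 67927937), a cluster of 17 low-level members had a germ median of 0.41, with 4 of 11 members 2-fold higher in male germ cells and 1 in female ones. Its extremes were Zfp493 (5.988 SPM in the male and 0 in the female germ library) and Zfp712 (5.28 and 15.3). On chromosome 7 a cluster of 15 (30553570 to 30954746) had 6 members higher in male germ cells and 1 in female ones, with a median of 0.13 and extremes Zfp940 (23.4 and 2.40 SPM) and Zfp14 (13.4 and 30.9). A cluster of 14 (24866962 to 26012524) had 2 and 3 of 12, a median of -0.24 and extremes Zfp428 (37.5 and 13.8 SPM) and Zfp180 (17.5 and 57.9).

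Of the remaining clusters on chromosome 7, that of 10 members from 134376956 had 0 male and 2 female of 8 (median -0.25), that of 7 from 13000496 had 3 and 1 (0.61), and that of 5 from 50432957 had 3 and 1 (1.23). A cluster of 6 from 4866818 had 1 member at 5 SPM. On chromosome 9, 6 members from 19426534 had 1 and 0 (0.43), and 5 from 21859903 had 1 and 2 of 4 (-1.31). The cluster of 6 from 71732944 on chromosome 8 had 1 and 0 (-0.24), and that of 6 from 75447114 on chromosome 15 had 1 and 1 of 5 (0.01). Somatic medians of all 15 clusters lay between -0.35 and 0.16. Each cluster median is over the members at 5 SPM or more in a library of that cell type. The counts are of members at least 2-fold apart between the germ libraries, beside 26.8% male and 26.3% female over all genes.

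**Figure D5:**
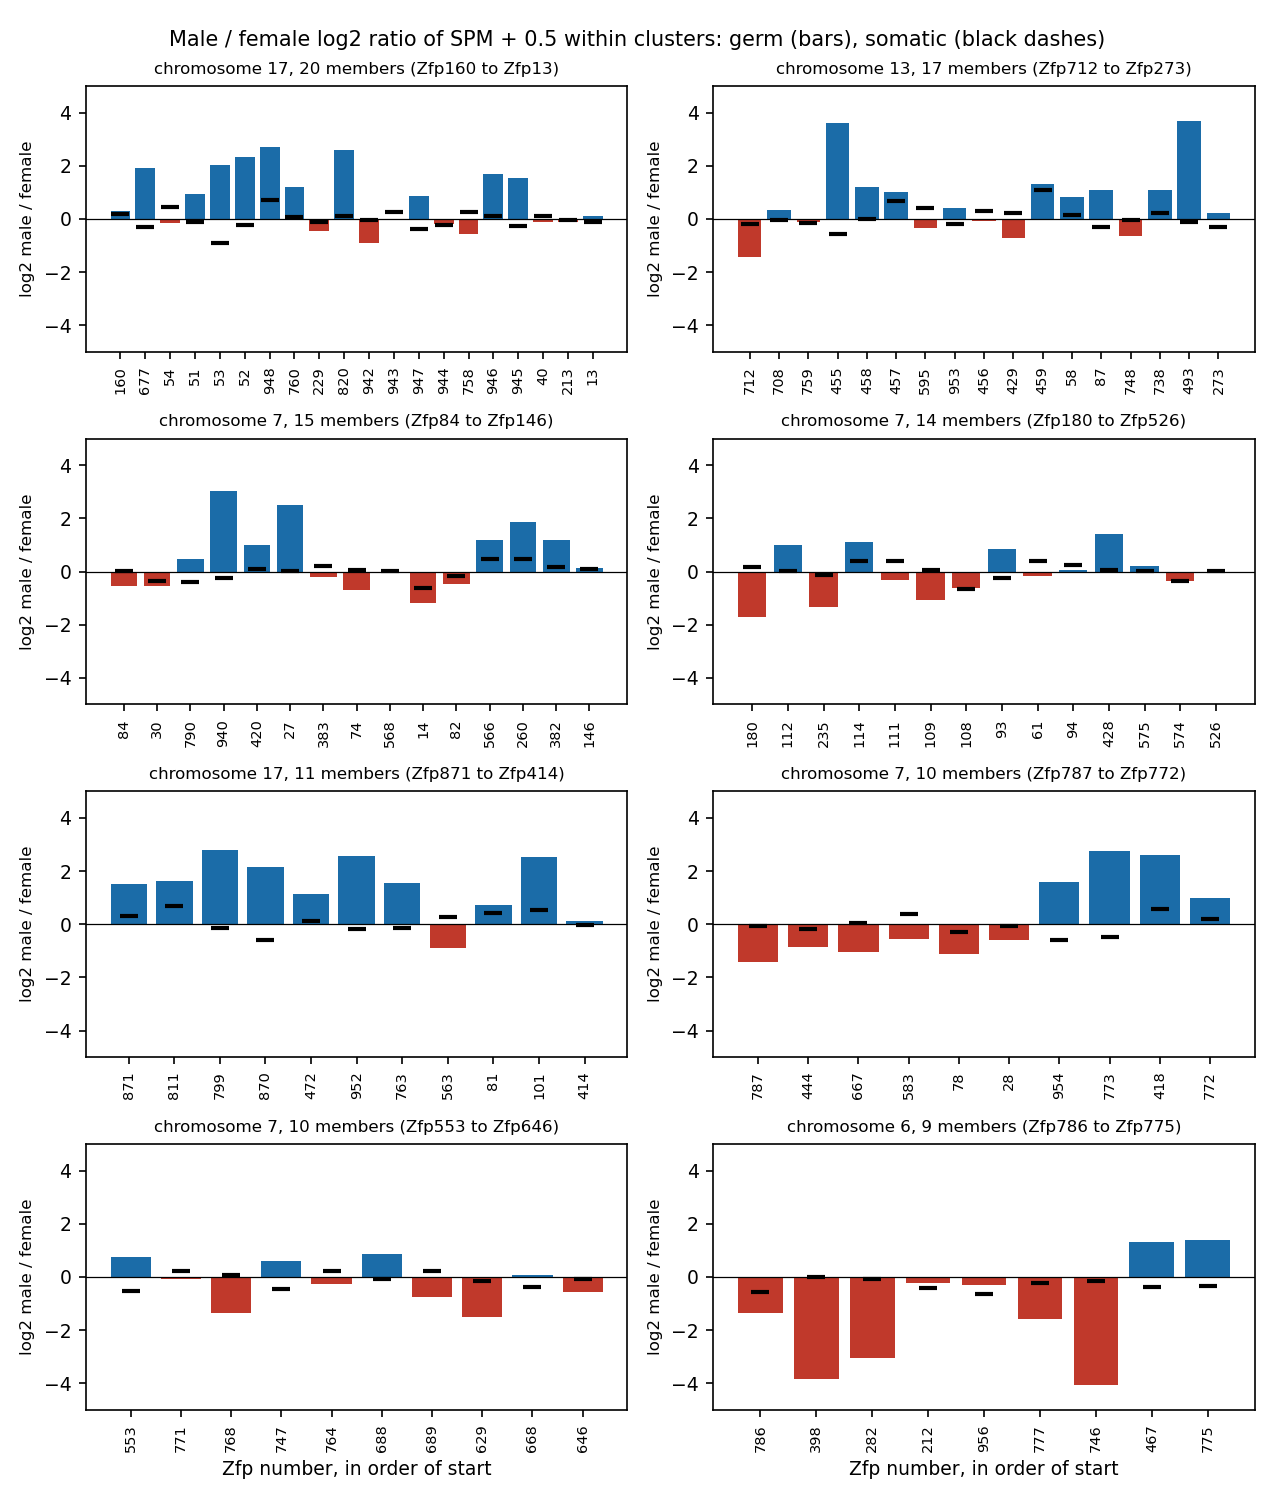
Log2 ratio of male to female SPM + 0.5 (y axis) for the members of the 8 clusters of 9 or more, in order of their start (x axis, by Zfp number), in germ cells (bars) and somatic cells (black dashes). The bars reach from -4.07 (Zfp746, chromosome 6) to 3.70 (Zfp493, chromosome 13), and the dashes lie between -0.90 (Zfp53) and 1.09 (Zfp459).

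Among members with known roles, Zfp568, a KRAB gene that silences a placental transcript of Igf2, stood at 212 and 220 SPM in germ cells and at 105 and 104 in somatic cells. Its log2 ratio of 1.05 ± 0.36 did not pass (limma adjusted p = 0.122), although the 2 germ values lay above both somatic values. Zfp809, a KRAB gene that silences murine leukaemia proviruses, stood at 4.33 SPM in the male and 16.9 in the female germ library and at 15.3 and 21.3 in somatic cells, so that the male germ library was the lowest of the 4. Zfp90 stood at 38.4 and 10.1 SPM in germ cells and at 30.7 and 35.7 in somatic cells, with the female germ library the lowest.

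Of the genes linked to pluripotency, Zfp281 stood at 131 and 100 SPM in germ cells against 55.8 and 55.4, Zfp462 at 46.5 and 33.4 against 85.2 and 121, and Zfp296 at 2.999 and 0.739 against 0.581 and 0.866. Zfp281 (limma adjusted p = 0.156) and Zfp462 (0.118) did not pass, and Zfp296 was too low to be tested. Zfp521, a gene of early progenitor cells, stood at 9.20 and 26.7 SPM in germ cells against 90.3 and 150 (limma adjusted p = 0.0635). Zfp36, which encodes the mRNA decay factor tristetraprolin, stood at 7.78 and 2.81 SPM against 36.2 and 69.0 (limma adjusted p = 0.0611). Both had both germ values below both somatic values.

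Zfp644, whose protein works with the G9a and GLP methyltransferases, stood at 299 and 236 SPM in germ cells and at 298 and 274 in somatic cells. Zfp335 lay between 44.1 and 50.8 SPM, and Zfp598, a gene of the response to stalled ribosomes, between 38.9 and 57.0. The promoter factor gene Zfp143 lay between 20.3 and 50.8 SPM, and Zfp148 between 94.3 and 189. Zfp622 stood at 134 and 343 SPM in germ cells against 55.8 and 66.9 (limma adjusted p = 0.105). Zfp711, on chromosome X, which acts with the demethylase PHF8, stood at 15.8 and 73.2 SPM in germ cells against 13.2 and 18.2, with the female germ library alone high.

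The 12 partner genes through which KRAB proteins act were all tested, and 0 passed in either direction between germ and somatic cells. Over all genes tested the share was 8.06%. Trim28, the corepressor gene itself, was level, at 1005 and 958 SPM in the male and female germ libraries and 1035 and 1151 in somatic cells. Setdb1, the methyltransferase gene, stood at 336 SPM in the male and 1099.7 in the female germ library, 3.28-fold higher in the female, and at 209 and 184 in somatic cells. Of the HP1 genes, Cbx1 stood at 17.7 and 74.7 SPM in germ cells (4.21-fold higher in female), Cbx5 at 387 and 147 (2.64-fold higher in male) and Cbx3 at 126 and 89.5. Atf7ip, whose protein stabilises SETDB1, stood at 202 and 70.2 SPM, 2.88-fold higher in male germ cells. In germ cells 2 of the 12 were at least 2-fold higher in male and 4 in female, against 26.8% and 26.3% of all genes. In somatic cells 0 were 2-fold apart, against 9.61% and 8.26%. With 12 genes these counts do not set the partners apart from all genes.

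Other zinc finger families differed from the members in their medians, given here without a test. The 32 Zbtb genes, which pair a BTB domain with zinc fingers, had a median germ against somatic log2 ratio of 0.25, and the 17 Zscan and Zkscan genes, which carry a SCAN domain, had -0.12. The members had -0.28 and all genes tested -0.11. Both germ libraries stood above both somatic libraries for 11 Zbtb genes (34.4%) and 7 Zscan and Zkscan genes (41.2%). The shares were 20.6% of the members and 28.5% of all genes. They stood below both somatic libraries for 18.8% and 23.5% of the 2 families, against 37.2% of the members and 33.8% of all genes. Between the germ libraries the SD of the log2 ratio was 1.25 for Zbtb genes and 1.52 for Zscan and Zkscan genes, against 1.49 for the members. In somatic cells it was 0.49 and 0.24.

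Some values of close relatives are uncertain, because a read that fits several near-identical genes has no certain origin. No 2 members had the same values in all 4 libraries. Of the 332, 9 overlap a gene on the opposite strand and 3 a gene on the same strand, namely Zfp433, Zfp600 and Zfp708. The libraries are strand-specific per the labels, but the use of strand in counting is not known here.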

How the data were processed

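Per the labels' protocols, RNA of sorted GFP-positive and GFP-negative cells was DNase-treated, depleted of ribosomal RNA and sequenced in strand-specific paired-end libraries. CASAVA 1.9, TopHat 1.2.0, edgeR and the mm9 build stand in the submitters' processing notes, while the counting program, annotation and use of strand are not given there. The deposited column, named counts in the file headers, was treated as a scaled read signal: its low values cluster at spacings of 4.105 to 6.105, taken as the worth of 1 read. A count test was therefore not used. From 20373 rows, 74 repeats were removed.

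Signals were divided by TMM-adjusted totals (factors 1.07 and 0.956 for the male and female germ libraries, 0.945 and 1.03 for the somatic ones) and tested with limma 3.58.1 in R 4.3.3 on log2(SPM + 0.5), which understates folds of low genes, for genes at 1 SPM in at least 2 libraries. The code was tested on simulated data. In the germ against somatic test without sex as a term, the spread behind a p-value is that between the male and female libraries of a cell type. It therefore holds any sex difference. The labels do not tie libraries to animals, so the spread between libraries may also be technical. Ratios of 1 library to 1 carry exact conditional binomial 95% intervals on estimated reads. These cover counting error only, as does the floor of 3 reads (0.113, 0.179, 0.180 and 0.120 SPM in the same order).

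The members and lists were chosen with earlier results of these data known. Named members were those that passed (filled to 5), the 8 and 5 most unequal between the sexes in germ and somatic cells, the 5 highest per kb, the extremes of the 5 largest clusters and members with textbook roles. Genes of these lists without a value in the text are not analysed here. All 332 symbols matched RefSeq, 11 through older symbols. Other scalings, filters, pseudocounts, folds, cluster gaps and omitted libraries were tried.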

Additional observations from a re-analysis of the deposited data

Results flagged for a closer look

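Zfp365 was at least 4-fold apart between the sexes in both cell types and in opposite directions. The log2 ratio of male to female SPM + 0.5 was 4.37 in germ cells, where the female library was listed at 0, and -1.91 in somatic cells, where the male library held about 18 reads. The 2 ratios differ by 6.28 on the log2 scale. With 1 library per group this difference was not tested.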

How the results depend on the processing

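Leaving out 1 library moved the germ against somatic counts most, from 64 to 3597 genes in all, from 0 to 22 members higher and from 0 to 31 members lower in germ cells. Without a filter on low values 0 genes and 0 members passed limma in either direction, although 4625 genes, 20 members higher and 40 lower had an unadjusted p under 0.05. With sex as a term 3049 genes, 10 members higher and 24 lower passed. With a filter at 5 SPM 14 of 294 members passed as lower, against 1066 of 11774 genes. All 12 members that passed kept their direction under the 11 alternatives. For omitted libraries this was fixed in advance, since both germ values lay on the same side of both somatic values. Under the other scalings and pseudocounts, the filter at 5 SPM and sex as a term, 10 to 12 of them passed. Without a filter 0 passed (limma adjusted p from 0.0702 to 0.0803). Zfp541 passed with sex as a term (adjusted p = 0.000109) and without the male germ library (0.0385). The cause of these shifts was not tested.

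The count of genes with a shared sex difference, 19, was 0 with library totals alone and with upper-quartile factors, 9 without a filter, 36 at 5 SPM and 126 with a pseudocount of 0.1 SPM, where 1 member passed. At 20 SPM in the higher library 19 members were 4-fold higher in male germ cells, and 0 in either direction in somatic cells. At 1 SPM 2 members were higher in female somatic cells. The shares of all genes at 20 and at 1 SPM were not counted. At 2-fold the counts were 79 and 62 in germ cells and 5 and 8 in somatic cells, male and female, with the shares of all genes given above. The number of groups of neighbours was 46 at 0.5 Mb and 46 at 2 Mb. The labels give no replicate numbers, so sex was the only term by which germ and somatic libraries could be paired. The planned comparison of members with and without a KRAB-like core was not run. With 1 library per group, sex and library cannot be told apart.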
